A study of Mus musculus with 2 samples.

Results

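Notch signalling genes were described from an ATAC-seq peak list of sorted embryonic cells. They comprise 5 ligand genes (Dll1, Dll3, Dll4, Jag1, Jag2), 2 receptor genes (Notch1, Notch2) and 3 Hes genes (Hes1, Hes5, Hes6). An accessible site was assigned to a gene when its summit lay inside the gene's span. A summit outside was assigned when it lay within 100 kb and an end of that gene was the nearest protein-coding gene end. This gave 137 of the 138387 summit entries of the list, in 95 separate intervals, and no entry was shared between members.

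ATAC-seq cuts and tags open chromatin with the transposase Tn5. GFP-positive cells, labelled as spinal motor neurons, were purified by FACS at embryonic day 10.5 from C57/Bl6 embryos that carry Hb9::GFP. Hb9 is the older name of Mnx1, and the reporter marks cells in which that gene's promoter is or was active. The labels give 1 group of 2 replicates, and the list is named as pooled over them. Values therefore come without replicate errors, and there are no conditions to contrast. Whether each replicate was a different litter is not stated in the labels.

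Notch receptors are activated by Delta-like and Jagged ligands on neighbouring cells. Cleavage then frees the receptor's intracellular domain, which joins the DNA-binding protein RBPJ and turns on Hes and Hey genes, repressors of proneural genes. In the neural tube, cells that commit to become neurons raise Dll1 and activate Notch in their neighbours, which remain progenitors. Hes1 and Hes5 are the classical targets in progenitors. Hes6 is known as an antagonist of Hes1 that accompanies neuronal differentiation.

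Each entry carries the authors' fold, which divides summit reads by a local background, the depth that the peak caller took from the surroundings. Both terms were solved from the fold and the −log10 p that the authors deposited. The list was permissive. Its median entry had 3.14-fold enrichment and 24 reads, and its smallest had 11 reads. The lowest background used, the genome-wide one, was 5.37 reads. Absence from the list does not show closed chromatin. Of 8 motor neuron genes, 7 had an entry within 1 kb of a gene end, the exception being Isl2, at 3.08 to 10.9-fold; among all protein-coding genes the share was 65.5%. The 5 progenitor genes Sox2, Pax6, Nes, Olig2 and Vim all had one as well, at 3.92 to 4.71-fold. None of the 3 blood genes had one. Of 3 endothelial genes 2 had one, at 2.65 and 7.67-fold, the exception being Pecam1. Both muscle genes had one, at 2.36 and 3.52-fold. Accessibility is not expression, so these counts do not measure how many such cells were present, and their part in the Notch gene results was not tested.

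The sequences in front of 5 of the genes are shown first, because the results below compare them: the 2 starts of Dll1 and of Hes6, Notch1 with Notch2, and the RBPJ letters of Hes5. RefSeq's promoter table (GRCm38.p6, the assembly behind mm10) listed 11 starts for 9 of the 10 genes. Hes1 was not among them. Each stretch is the 250 bases before a listed start, 5′ to 3′ on the gene's strand. Capitals mark the RBPJ letters TGGGAA, the E-box CAGCTG, the Sp/KLF box GGGCGG and the Hes-type class C box CACGNG, all on either strand.
Hes5, chr4:154960673-154960922, plus strand: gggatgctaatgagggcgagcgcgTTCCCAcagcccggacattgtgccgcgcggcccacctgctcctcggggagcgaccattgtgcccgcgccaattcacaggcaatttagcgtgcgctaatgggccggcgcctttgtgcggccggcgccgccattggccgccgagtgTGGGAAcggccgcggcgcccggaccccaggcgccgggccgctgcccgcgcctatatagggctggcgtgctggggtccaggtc
Hes6 inner start, chr1:91413223-91413472, minus strand: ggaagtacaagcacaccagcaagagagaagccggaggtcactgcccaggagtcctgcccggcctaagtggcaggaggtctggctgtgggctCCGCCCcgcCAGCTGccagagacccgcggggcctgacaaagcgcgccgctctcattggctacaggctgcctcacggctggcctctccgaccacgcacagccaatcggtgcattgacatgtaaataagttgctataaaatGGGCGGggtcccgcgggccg
Hes6 outer start, chr1:91414039-91414288, minus strand: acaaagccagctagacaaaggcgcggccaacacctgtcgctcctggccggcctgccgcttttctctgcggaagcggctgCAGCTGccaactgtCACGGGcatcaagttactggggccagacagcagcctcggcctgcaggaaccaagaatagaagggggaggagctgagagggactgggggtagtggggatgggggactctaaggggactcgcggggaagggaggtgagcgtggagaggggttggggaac
Dll1 inner start, chr17:15375824-15376073, minus strand: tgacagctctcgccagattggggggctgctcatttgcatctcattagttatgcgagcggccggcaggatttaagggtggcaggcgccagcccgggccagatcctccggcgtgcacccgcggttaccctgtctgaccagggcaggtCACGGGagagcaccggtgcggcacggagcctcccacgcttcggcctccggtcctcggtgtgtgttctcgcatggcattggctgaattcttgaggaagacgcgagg
Dll1 outer start, chr17:15376933-15377182, minus strand: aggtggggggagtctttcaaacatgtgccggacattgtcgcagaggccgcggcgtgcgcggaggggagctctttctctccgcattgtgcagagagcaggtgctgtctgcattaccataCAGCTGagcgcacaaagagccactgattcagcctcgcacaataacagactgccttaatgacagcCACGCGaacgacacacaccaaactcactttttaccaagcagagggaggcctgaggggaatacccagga
Notch1, chr2:26503823-26504072, minus strand: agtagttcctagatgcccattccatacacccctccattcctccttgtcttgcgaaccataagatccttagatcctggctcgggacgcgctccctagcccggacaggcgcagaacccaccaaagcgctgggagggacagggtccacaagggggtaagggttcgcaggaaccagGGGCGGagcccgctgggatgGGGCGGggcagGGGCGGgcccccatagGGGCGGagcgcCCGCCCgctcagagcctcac
Notch2, chr3:98013288-98013537, plus strand: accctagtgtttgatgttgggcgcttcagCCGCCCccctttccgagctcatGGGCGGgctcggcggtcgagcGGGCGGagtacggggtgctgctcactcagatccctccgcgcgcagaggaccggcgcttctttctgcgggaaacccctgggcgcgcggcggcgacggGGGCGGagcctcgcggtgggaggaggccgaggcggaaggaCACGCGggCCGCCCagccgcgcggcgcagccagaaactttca

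Of the 9 genes with a listed start, Hes5 alone had the RBPJ letters, and it held them 2 times. The match on the reverse strand ran from 226 to 221 bases before the start, and the match on the forward strand from 82 to 77 bases before it. Both also matched the longer GTGGGAA. Among the 21263 listed 250-base stretches of protein-coding genes, the shorter letters were found in 20.9% and the longer in 5.26%. The E-box CAGCTG stood in 5 of the 11 member stretches, against 12.1% of all. These were both Hes6 stretches, the outer Dll1 stretch, Dll3 and Jag1. The general E-box CANNTG, which includes CAGCTG, was found in 7 of 11 against 62.8% of all. The class C box was found in 6 of 11 (27.0% of all), the Hes N-box CACNAG in 4 of 11 (35.9%), and GGGCGG in 6 of 11 (42.6%). No member stretch held the Neurog2-type E-box CAGATG (12.4% of all), the palindromic EBF motif (0.832%) or the homeodomain letters TAATTA (4.31%). A TATAAA box, present in 11.6% of all stretches, stood in front of the inner Hes6 start and no other member start. CCAAT was found in 5 of 11 (35.4%). A match describes letters and not binding.

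Every one of the 10 genes had an entry within 1 kb of a gene end, where 65.5% of all 21887 protein-coding genes had one. Using the listed windows, which add 50 bases after the start, a summit fell in 9 of 11 member windows and in 42.3% of all windows. By gene these were 8 of 9, against 45.9% of all genes with a window. The windows without a summit were the outer Dll1 window and that of Jag1. For the highest gene-end entry the members' median was 4.58-fold, and that of all genes with such an entry was 8.17-fold. Its reads had a median of 116, above the 97 of all genes. The members' local background was a median of 25.6 reads at these entries, against 10.7.

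**Figure D1:**
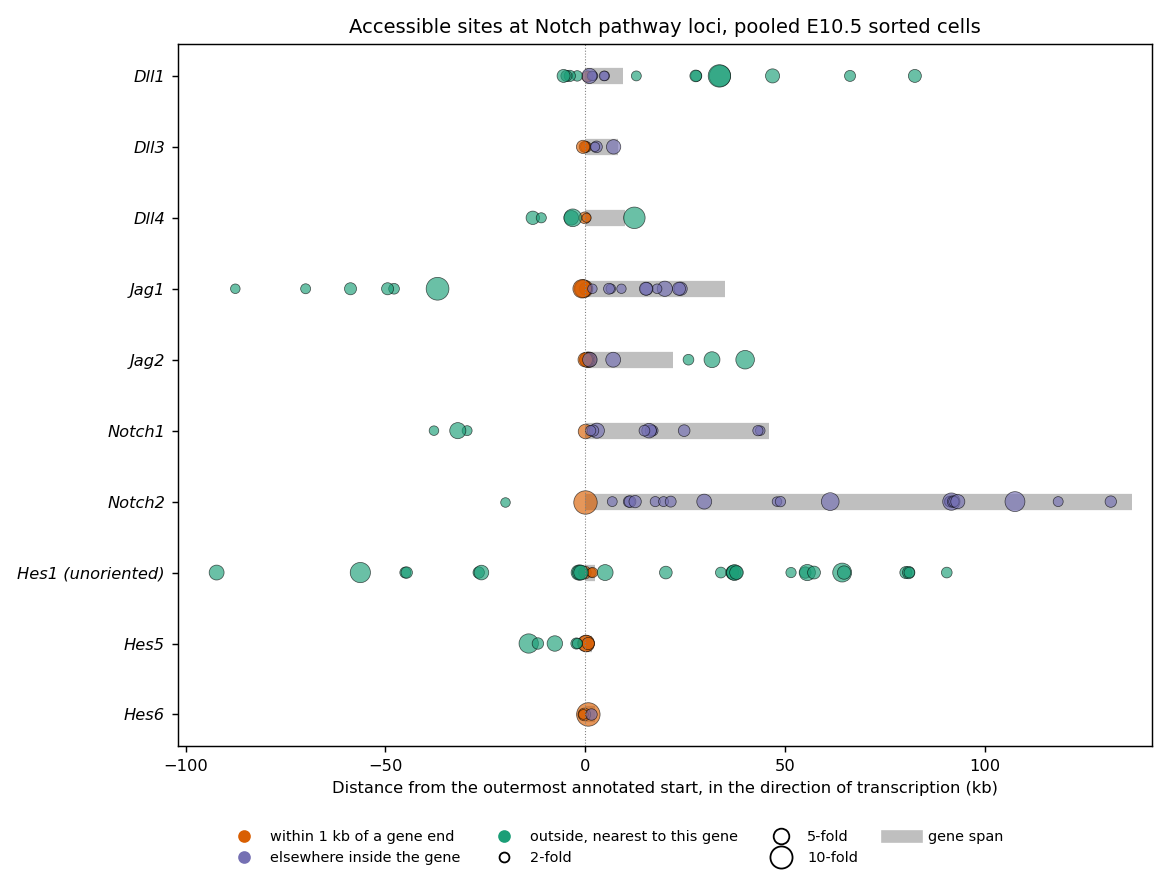
Position of all 137 entries by distance in kb from the outermost annotated start, 1 row per gene, drawn in the direction of transcription. Hes1, whose strand was not listed, is drawn by increasing coordinate. Circle area is proportional to fold, colour gives the class of site, and grey bars are gene spans. Receptor entries lie mostly inside the genes, and Hes1 entries lie mostly outside on both sides.

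Dll1 encodes the ligand that newborn neurons use in lateral inhibition. It held 18 entries in 12 intervals on chromosome 17, 17 of them distal, that is with a summit more than 1 kb from every protein-coding gene end. As many distal entries or more were held by 5.82% of all genes. Its single gene-end entry, 530 bp inside the outer end, had 2.57-fold enrichment and 95 reads (95% exact Poisson interval 76.9 to 116) over a local background of 36.4. The same interval, 15374863 to 15376743, had its highest summit 38 bp from the inner listed start, at 4.69-fold and 165 reads (141 to 192). The outer stretch printed above, the one with the E-box CAGCTG, thus held no summit, and the inner stretch held the strongest of the gene itself. Upstream of the gene, 4 entries between 2.01 and 5.41 kb from the end reached 2.26 to 3.46-fold with 68 to 90 reads. The highest fold of the locus lay 24.0 kb downstream of the gene, between genes at 15342679 to 15343763. Its 2 summits had 10.3-fold with 128 reads and 9.26-fold with 115 reads, over a background of 11.5. Weaker downstream entries of 2.51 to 4.08-fold lay 18.1 to 72.9 kb away, apart from 1 of 2.03-fold at 3.22 kb.

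Dll4, the ligand best known from blood vessels and also made by some spinal interneuron progenitors, had the second lowest gene-end fold of the members. Its start held 2.84-fold and 45 reads (32.8 to 60.2) 97 bp before the start, and 1.73-fold and 27 reads just inside. Distal sites there were stronger. An interval 3.12 kb upstream (chromosome 2, 119322033 to 119322935) had 6.42-fold and 100 reads, with a second summit of 4.38-fold and 68 reads. It lies inside the lncRNA gene Gm14207, which also covers the Dll4 start, so position alone cannot tell the genes apart. The highest Dll4 entry had 9.45-fold and 97 reads, 2.43 kb beyond the far end (119337366 to 119338294).

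Dll3 encodes a ligand that inhibits Notch within the cell and is known in neural and somite development. It had 6 entries in 3 intervals on chromosome 7, none of them outside the gene by more than 1 kb. The 3 summits at its start had 2.46, 2.54 and 3.58-fold with 27, 28 and 40 reads. The gene's highest entry had 4.22-fold and 51 reads, 1.13 kb inside the far end (28294481 to 28295085). The 2 other distal summits, in the interval 28298880 to 28299376, had 2.79-fold with 35 reads and 1.78-fold with 22 reads. Reads at the Dll3 summits ran from 22 to 51, and no other member had so low a maximum. The gene's territory, its span plus the sequence nearest to its ends, was 11.3 kb, since Selenov and Timm50 lie 2.37 and 3.73 kb away.

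Jag1, a ligand of ventral and dorsal interneuron progenitor domains in the spinal cord, had a strong and wide site before its start. The interval of 1756 bp (chromosome 2, 137116015 to 137117770) had 4 summits. The 3 outside the gene, 322, 586 and 760 bp from the end, had 6.56, 6.26 and 7.04-fold with 212, 201 and 225 reads. The one inside had 3.32-fold and 108 reads. At least as many reads at a gene end were found in 3.14% of genes with such an entry. The listed window lay between 2 of the summits and held none. Inside the gene lay 10 distal entries of 1.81 to 4.74-fold, the highest with 127 reads at 137096353 to 137096856 and the next, of 3.63-fold and 78 reads, at 137092507 to 137093382. The highest fold of the locus was 37.0 kb upstream, between genes at 137153187 to 137153645, with 10.6-fold and 75 reads over a background of 6.16. The 5 other upstream entries had 1.89 to 2.98-fold and 11 to 18 reads.

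Jag2, a ligand known from motor neuron progenitors and motor neurons of the ventral cord, had 1 interval of 1931 bp over its start (chromosome 12, 112928402 to 112930332). Its 5 summits differed little, at 4.15 to 4.83-fold and 78 to 91 reads, a range of reads that lies inside the Poisson interval of the highest (73.3 to 112). No summit lay upstream. Downstream, 3 entries had 7.07, 5.18 and 2.36-fold at 18.0, 9.73 and 3.84 kb from the far end. The first rested on 44 reads over the genome-wide background of 5.37. Inside the gene, 7.01 kb from the start side, an entry at 112922521 to 112923273 had 4.52-fold and 53 reads.

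**Figure D2:**
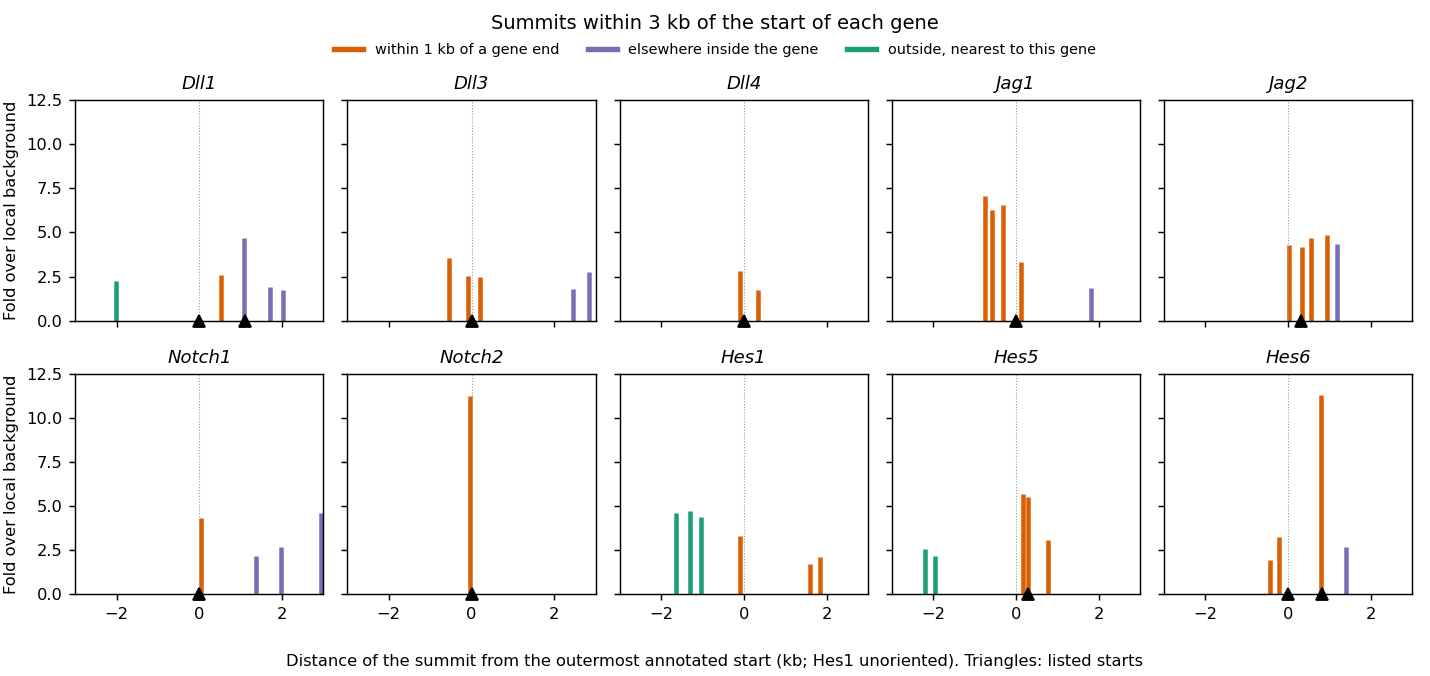
Fold of each summit within 3 kb of the outermost annotated start of the 10 genes, in kb along the direction of transcription (Hes1 by increasing coordinate). Bar colour gives the class of site and triangles mark starts listed by RefSeq. The highest bars of Dll1 and Hes6 stand at the inner start, and Notch2 shows a single bar of 11.2-fold.

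The receptors Notch1 and Notch2 are single-pass proteins of the same build, and most of their sites lay within the genes, 31 of 36 entries (86.1%). The ligands had 46.7% of entries inside and the Hes genes 17.1%. Gene length differs among them, from 1747 bp for Hes5 to 136830 bp for Notch2, so these shares partly restate it. At their starts the receptors had like numbers of reads and unlike folds. The Notch1 entry, 33 bp inside the start, had 130 reads (109 to 154), and the Notch2 entry, 27 bp before the start, had 137 reads (115 to 162). The local background was 29.3 reads at Notch1 and 11.3 at Notch2, which gave 4.33-fold and 11.2-fold. The reads did not differ beyond counting error, and the contrast in fold came from the denominator. Both printed stretches hold 5 GGGCGG boxes. The CpG content of the Notch2 stretch was 1.06 times that expected from its bases, against 0.588 at Notch1.

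Notch1 had 13 distal entries, 10 of them inside the gene. One site 2.93 kb inside (chromosome 2, 26500550 to 26501145) had as many reads as the start, 138 (116 to 163), at 4.64-fold. A second group between 14.8 and 16.9 kb from the start held 4 summits, with the highest at 4.34-fold and 76 reads (26487223 to 26488372). The highest distal fold was 5.32 with 43 reads, 31.9 kb upstream at 26535413 to 26536046. Notch2 had 21 distal entries, 20 of them inside, of which 8.09-fold with 83 reads was the highest (chromosome 3, 98120654 to 98121467, 108 kb from the start). Next came 6.43-fold with 41 reads at 98074505 to 98075218 and 6.11-fold with 58 reads at 98104586 to 98105952, an interval with 5 summits. At Notch2, 14 of 22 entries had a q-value under 0.05, a limit passed by 82.3% of the whole list. It was passed by 10 of 14 entries at Notch1, 53 of 60 at the ligands and all 41 at the Hes genes.

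Hes1, a bHLH repressor whose level oscillates in progenitors, had 29 entries in 19 intervals on chromosome 16, the most of the 10 genes at a reach of 100 kb. With a reach of 50 kb it had 18 and with 20 kb 8, while Notch2 had 22 at both. As many entries as the 29, or more, were found at 2.52% of all genes. Its territory of 197 kb is long because Opa1 lies 402 kb to the lower side and Cpn2 189 kb to the higher side. The gene-end entries had 3.31, 2.14 and 1.73-fold with 102, 70 and 57 reads, over a background of 30.2 to 32.5. The interval 1.04 to 1.64 kb to the lower side (30063301 to 30064505) was stronger, with summits of 4.73, 4.63 and 4.39-fold and 139, 133 and 129 reads. The highest fold of the locus, 8.36 with 81 reads, lay 56.3 kb to the lower side at 30008432 to 30009296, inside the lncRNA gene 4632428C04Rik. On the higher side, 7.33-fold with 102 reads lay 61.9 kb away (30129127 to 30130394), and 5.37-fold with 59 reads 53.2 kb away (30120362 to 30121280). A further interval with 4 summits at 30102031 to 30103368 reached 5.15-fold. Of the 26 distal entries, 10 lay on the genome-wide background, and 8 lay inside lncRNA genes (including 1 at 2.55 kb in Gm32998).

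Hes5, the other classical Notch target of neural progenitors, had 8 entries in a territory of 18.6 kb on chromosome 4. The interval at its start, 154960358 to 154961769, had summits of 5.67, 5.51 and 3.08-fold with 221, 215 and 120 reads, over a background of 38.2 to 38.3, and no member start had a higher background. The second of these summits lay 2 bp from the listed start, and the RBPJ letters printed above lie within the same interval. Upstream, 5 entries in 4 intervals were found between 1.96 and 14.1 kb. The highest had 7.64-fold and 132 reads at 154946249 to 154946747, and the next 4.90-fold and 78 reads at 154952683 to 154953334. The third had 2.69-fold and 57 reads, 11.8 kb upstream. All 5 had local backgrounds of 15.1 reads or more.

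Hes6, within 1 kb of its ends, had the highest gene-end fold and the most reads of the 10 genes. Within 500 bp its highest was 3.28-fold, and Notch2 then had the highest, 11.2-fold. The summit within 1 kb had 11.3-fold and 258 reads (227 to 291) and lay 28 bp before the inner listed start, in the interval 91412404 to 91413670 on chromosome 1. At least as many reads were found at 1.19% of genes with a gene-end entry. The stretch before this start is the one with a TATAAA box, 28 to 23 bases before it, and an E-box CAGCTG, 150 to 145 bases before it. At the outer start an entry 215 bp upstream had 3.28-fold and 75 reads (the other there 1.94-fold and 44 reads). The intervals of the reads at the inner and outer start do not overlap. Hes6 lies between close neighbours, Per2 at 1.94 kb and Ilkap at 12.6 kb, and its 1 distal entry, of 2.69-fold, lay inside the gene 1.16 kb from an end.

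**Figure D3:**
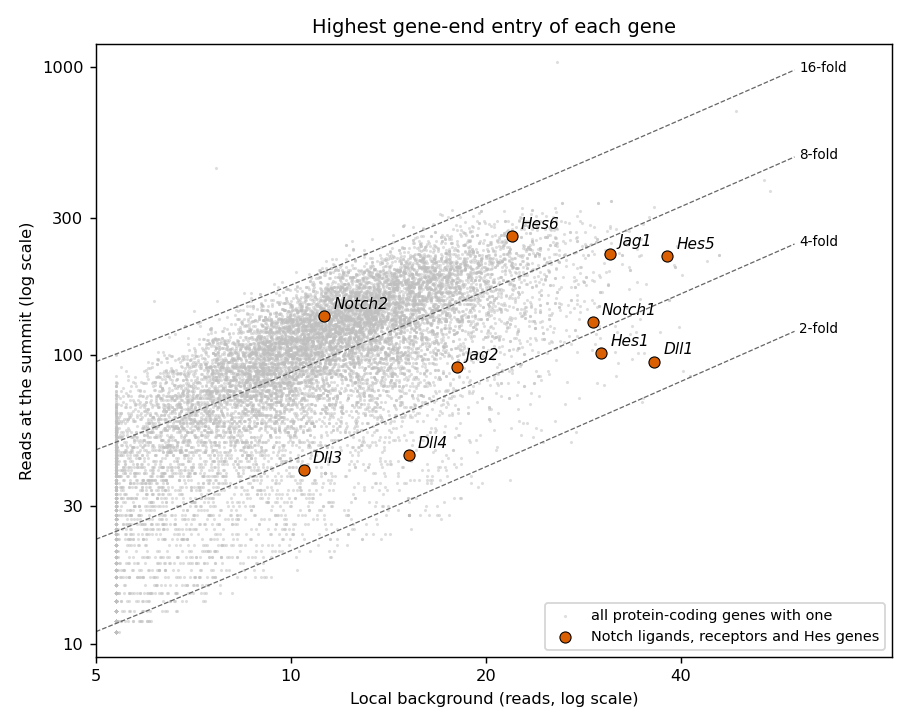
Reads at the summit against local background (both log axes) for the highest gene-end entry, by fold, of 14341 protein-coding genes (grey) and the 10 Notch genes (orange), with dashed lines of equal fold. Most Notch genes lie toward the right of the cloud, and Notch2 and Hes6 alone reach above 8-fold.

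A high local background was common to most of the starts. It reached 20 reads or more at 6 of 10 genes (Dll1, Jag1, Notch1, Hes1, Hes5 and Hes6), against 6.47% of all genes with a gene-end entry. This limit was chosen after the values were seen. With a limit of 15 reads 8 genes passed it, against 21.1% of all genes with such an entry. With 30 reads 4 passed it, against 0.586%. At Notch2 and Dll3 the background was near the 10.7 of all genes. The starts had intervals of 1000 bp or more at 7 of 10 genes, with 52.3% of all genes with one. The 11 member stretches had a median GC content of 64.0%, close to the 62.4% of stretches whose window held a summit and above the 55.6% of all.

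By fold, though not by reads, distal sites outranked the gene ends at most of the loci. The highest distal fold was above the highest gene-end fold at 8 of 10 genes, the exceptions being Notch2 and Hes6, against 31.8% of the 10616 genes that have both kinds. Genes with many distal entries have more chances to pass this comparison. Among genes with at least 5 distal entries the share was 47.0%, with 7 of 8 members above. In reads, which leave out the denominator, the distal entry was above at 5 of 10 genes (Dll1, Dll3, Dll4, Notch1 and Hes1) against 26.0% of all. Among genes with at least 5 distal entries it was above at 4 of 8 members, against 36.9%. At Dll3, Notch1 and Hes1 the Poisson intervals of the 2 kinds overlapped. At Dll1 the distal entry with most reads, 165, lay 38 bp from the inner listed start. It counts as distal because it lay 1.07 kb from the outer end. Those of Dll3 (51 reads) and Hes1 (139 reads) lay 1.125 and 1.305 kb from an end. All of these would be gene-end entries in a 2 kb window. Beyond 2 kb the most reads were 128 at Dll1, 35 at Dll3 and 102 at Hes1, each below the summit nearer the end. The highest Dll1 entry outside the gene had 128 reads (107 to 152). That is below the 165 at the inner start, and its interval overlapped that of the 95 reads at the gene end (76.9 to 116).

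**Figure D4:**
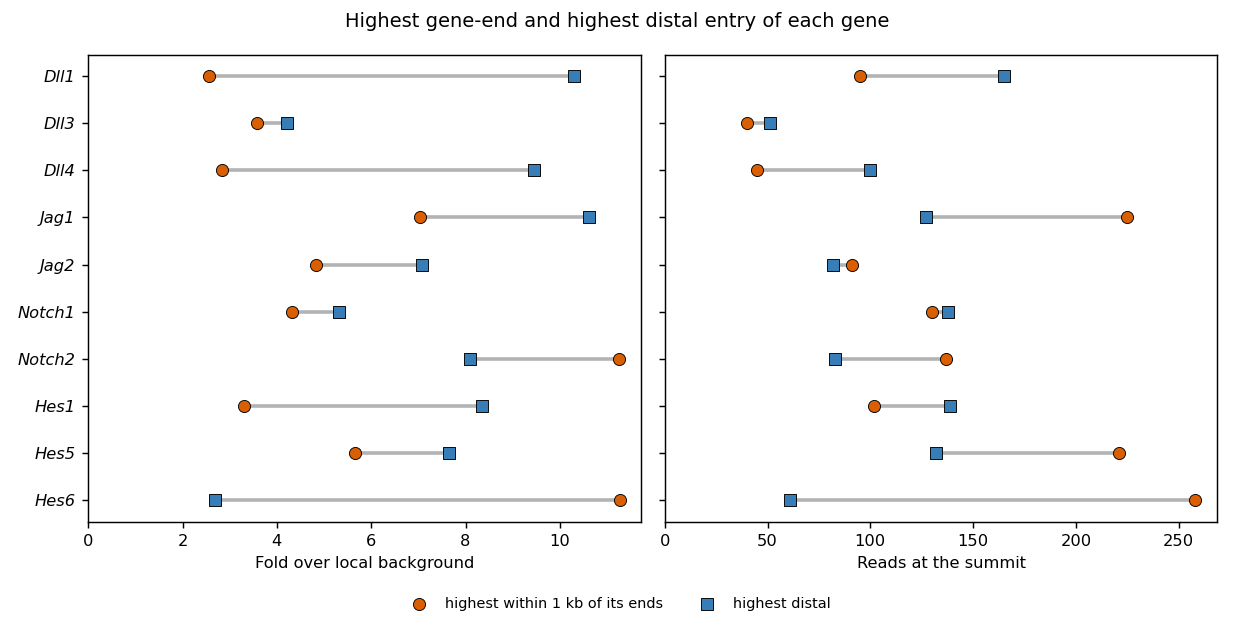
Highest entry within 1 kb of a gene end (circles) and highest distal entry (squares) of each gene, as fold on the left and as reads on the right, each with its own maximum. By fold the square lies to the right at 8 genes, and by reads at 5, with Jag1, Jag2 and Hes5 changing sides. The square of Dll1 in reads is the summit 38 bp from its inner listed start. Those of Dll3 and Hes1 in reads lie 1.125 and 1.305 kb from an end.

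Distal entries numbered 112 over the 10 genes. The median gene held 9, against 2 over all genes. At least 5 were found at 8 members and at 27.4% of all genes, and at least 1 at all 10 and at 66.9%. By distance to the nearer end, 39 lay within 10 kb, 56 between 10 and 50 kb and 17 farther away. By place, 51 lay inside a member and 61 outside. The median distal entry of the members had 2.75-fold, below the 2.98-fold of all distal entries, and 35 reads, above their 21. Their local background was a median of 8.66 reads, against the genome-wide 5.37 for all. The members had 16.7 entries per 100 kb of territory (95% exact Poisson interval 14.0 to 19.7), and all genes pooled had 6.19. That error counts each entry as independent, but as many as 5 summits shared 1 peak interval. With 1 entry per interval the densities were 11.6 and 4.57. Dll3, Hes5 and Hes6 were the densest at 53.2, 43.0 and 40.6 per 100 kb, with the shortest territories of the 10, from 9.85 to 18.6 kb. The other 7 genes had 13.3 to 22.3.

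**Figure D5:**
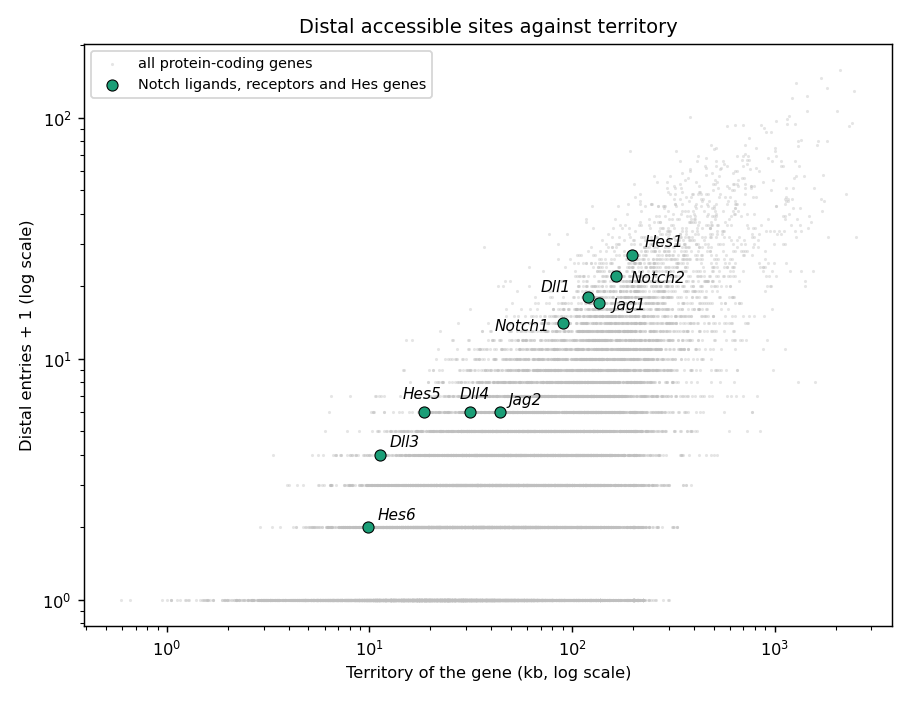
Distal entries per gene plus 1 against the gene's territory in kb, both log axes, for all 21887 protein-coding genes (grey) and the 10 Notch genes (green). The Notch genes, from 1 distal entry at Hes6 to 26 at Hes1, follow the rise with territory and lie toward the upper side of the cloud.

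The rest of the pathway was read from a list of 43 genes. Of these 41 had a gene-end entry, against 65.5% of all genes, with a median of 7.61-fold and 99 reads over a background of 12.7. Notch4, a receptor of endothelium, and Aph1b, a gamma-secretase subunit, had none. Notch4 had 5 distal entries of up to 7.11-fold, and Aph1b had 2 of up to 10.4-fold. The median of distal entries over the list was 4. The most were found at Maml3 (73) and Maml2 (42), coactivators of the RBPJ complex with spans of 418000 and 412973 bp, and at Rbpj and Dlk1 with 15 each. The gene-end entry of Rbpj had 2.67-fold and 16 reads. Its highest distal entry had 7.12-fold and 191 reads over a background of 26.0, in an interval of 2432 bp. Distal is measured from gene ends, and whether this entry lies at an inner start was not tested. The proteases that cleave Notch had a median gene-end fold of 9.96, against 8.17 for all genes with such an entry, and ran from 4.32-fold at Psenen to 12.7-fold at Adam17. Their median number of distal entries was 1. Ubiquitin ligases and endocytic regulators had 9.26-fold and 4 distal entries. The 7 other effector genes resembled the members in local background. It was 20 reads or more at 5 of them (Nrarp, Hes3, Hes7, Hey1 and Hey2), at Lfng, which glycosylates Notch, and at Maml3, so at 7 of the 41, against 6.47% of all genes with a gene-end entry. The limit had been chosen from the members' values. Reads at these ends ran from 93 at Maml3 to 268 at Hey2, and Hey1 had 223. Across the list the highest distal fold was above the gene-end fold at 11 of the 36 genes with both kinds, a share near the 31.8% of all genes.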

How the data were processed

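Accessible chromatin was profiled by ATAC-seq in 2 replicates of 1 group, and 1 pooled, filtered peak list was analysed. The submitters' processing notes name mm10, MACS2 2.2.7.1, BWA 0.7.1.7, Trim Galore, SAMtools 1.7.2 and cutadapt 0.6.2. Information on settings, the filter, duplicates and any shift for the Tn5 cut is not given in the sources used here. The fold is a ratio deposited by the authors, as are the −log10 values of p and q and the score, which was not used. The fold divides by the local background, so at equal reads a higher background gives a lower fold.

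Reads and background were solved from the fold, (reads + 1)/(background + 1), and the Poisson tail, and 99.96% of entries gave reads that differed from whole numbers by under 0.01. Total depth per library is unknown. Poisson intervals cover counting error alone. Genes came from GRCm38.p6. Exons and transcripts were not used here. Hes1 orientation was not listed. The scripts (Python 3.11.15, numpy 2.4.6, scipy 1.17.1, pandas 2.3.3) were tested on simulated data.

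The members and lists were chosen with earlier results of these data known. Members are all described, each with its highest gene-end entry and its 3 distal entries of highest fold where present; of the wider list, the 3 genes with most distal entries (4 with a tie) and those without a gene-end entry are named, and others named were chosen after their values were seen. No test was run, since there is 1 group in 1 list. Alternatives covered thresholds, reach, windows, background and gene set.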

Additional observations from a re-analysis of the deposited data

How the results depend on the processing

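No paired analysis was possible because the replicates were pooled into 1 list of 1 group, and for the same reason no replicate could be left out. Of 68 values over the genes under alternatives, 10 moved, 8 of them lower. Counts were taken as moved beyond a factor of 1.5, and the density and medians when they left their 95% interval, so changes such as 137 to 95 entries (1 per interval) or 102 (reach of 20 kb) are among the other 58. For the median gene-end fold of the members that interval was wide, 2.84 to 11.2, so its unmoved values say little about stability. When the 50% of entries with the highest −log10 q were kept, the members had 78 entries, 58 distal entries, 9.49 entries per 100 kb and a median of 4.34-fold. The wider list then had 148 distal entries, and all genes pooled had 3.16 entries per 100 kb. The median of all entries kept was 5.03-fold, above the 4.34 of the members. On the full list the members' median entry had 2.98-fold, against 3.14-fold for all entries. The density was 11.6 with 1 entry per interval and 21.0 with a reach of 20 kb (6.93 over all genes). Without entries of a local background of 30 reads or more, 6 genes had a gene-end entry, since those of Dll1, Jag1, Hes1 and Hes5 were removed. Of these 6 genes, 4 had a higher distal than gene-end fold, against 8 of 10 on the full list. The 4 genes that lost their gene-end entry had been among those 8 and could no longer be compared. Ranked by reads on the full list, 5 of 10 genes had a higher distal than gene-end entry. The distal summits with most reads at Dll1, Dll3 and Hes1 lay within 2 kb of an end, that of Dll1 at its inner start. With a 500 bp window, and with 1 entry per interval, Dll1 had no gene-end entry. With the 500 bp window Hes6 had 3.28-fold there, since its inner start lies farther in. With a 2 kb window Dll1 had 4.69-fold and Hes1 4.73-fold. The highest distal fold was above the highest gene-end fold at 7 genes with that window, and at 7 with a reach of 20 kb. The share over all genes was not computed for these 2 settings. With q-values under 0.05 Notch2 had 14 entries. The alternatives for the comparison of distal with gene-end entries and for the local background, and the use of listed starts, were chosen after seeing the data.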
